A study of Mus musculus with 18 samples.

Results

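Bone marrow-derived dendritic cells (DCs) treated with lipopolysaccharide (LPS) were compared with untreated, nonconfined DCs, with the libraries of both genotype labels pooled in each group. The members were taken by their labels, as all 6 LPS libraries and all 6 nonconfined libraries of the series, which makes 12 of 18 libraries. The other libraries, from DCs confined to a low height, entered only alternative settings. The series asked how DCs respond to changes of shape and what the phospholipase cPLA_2_ does in that response, and LPS stood in it for a microbial stimulus. Each group held 3 libraries labelled wild type (cPLA_2_ WT) and 3 labelled knockout for cPLA_2_ (cPLA_2_ KO). According to the Methods, knockout cells came from mice with floxed alleles of *Pla2g4a*, the gene of cPLA_2_, and Cre recombinase under the promoter of *Itgax* (CD11c), which limits the deletion to cells that have used this promoter. The Methods name male or female mice, and the labels give neither sex nor age for a sample. All cells were grown from bone marrow for 10 days with fetal calf serum and a supernatant of J558 cells that contains granulocyte-macrophage colony-stimulating factor (GM-CSF). Nonconfined cells had no treatment and were collected when this culture ended. LPS-treated cells were, by their labels, exposed to LPS at 100 ng ml-1 for 30 min, washed and kept in the incubator to the following day. The Methods state a shorter exposure and add that the washed cells were replated in fresh medium. No untreated group was kept overnight, so that LPS and the washing, replating and extra night of culture cannot be told apart in any difference below.

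LPS is a lipid of the outer membrane of Gram-negative bacteria. LPS-binding protein and CD14 hand it to the complex of TLR4 and MD-2, which signals from the plasma membrane through MyD88 to NF-kB and MAP kinases and from endosomes through TRIF to IRF3 and type I interferon. DCs that receive this signal mature, which means that they secrete cytokines, display costimulatory molecules, lower their uptake of antigen and acquire the chemokine receptor that leads them to lymph nodes.

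The deposited values are normalized counts, that is, reads per gene divided by a factor for the depth of each library and not scaled for gene length. Nonconfined libraries held between 34689393 and 45021696 reads on genes (median 38483641), and LPS-treated libraries between 39609637 and 61300021 (median 48638680). The test took in every gene that reached 10 normalized counts in 3 or more of the 12 libraries, 16935 in all. Log2(normalized count + 1) was compared with limma, and a gene is said to have risen or fallen if its adjusted p was under 0.05 and its absolute log2 fold change above 1. Fold changes are LPS-treated minus nonconfined on this scale, which understates the change of genes with few counts. The values of a group are given as the median and the range of its 6 libraries, and SE is the standard error of a log2 fold change. A figure legend of the study calls each of its samples a biological replicate, but it names confined and nonconfined cells and not LPS-treated ones. Neither it nor the labels say whether replicates were separate cultures or mice, so that p-values measure the spread between these samples.

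The libraries carried the genes of DCs grown with GM-CSF. *Itgax*, which encodes CD11c, was present at 6023 (range 4449 to 6386) in nonconfined and 6938 (6719 to 7192) in LPS-treated libraries. *Cd74*, the invariant chain of MHC class II, was present at 259294 (range 232219 to 284485) in nonconfined and 316721 (293489 to 336000) in LPS-treated libraries. Neither gene was called, and *Lyz2*, the lysozyme of myeloid cells, was at 247715 (range 235605 to 282957) in nonconfined and 239552 (220684 to 251463) in LPS-treated libraries. The transcription factor genes of conventional DCs *Zbtb46*, at 792 (range 709 to 909) in nonconfined and 1221 (1192 to 1379) in LPS-treated libraries, and *Batf3*, at 654 (range 613 to 734) in nonconfined and 914 (817 to 1009) in LPS-treated libraries, were also expressed and not called. *Flt3*, the receptor of the growth factor for conventional DC precursors, was low at 126 (range 113 to 166) in nonconfined and 135 (89.1 to 154) in LPS-treated libraries. *Csf1r*, the receptor of macrophage colony-stimulating factor, was high in both groups, at 37357 (range 36027 to 39789.9) in nonconfined and 23516 (22622 to 25016) in LPS-treated libraries, and was not called. Of 18 marker genes of conventional DCs, *Irf8* and *Xcr1* rose and *Cd24a*, *Clec9a* and *Cd209a* fell, beside 15.9% and 13.7% of all genes tested. Their summed values overlapped, with 590299 (527438 to 665453) normalized counts in nonconfined and 708484 (650636 to 775121) in LPS-treated libraries, and *Cd74* was the most abundant. Nonconfined sums under the cPLA_2_ WT label (527438 to 552789) lay below every LPS-treated library.

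According to the Methods, only the semiadherent cells were collected, to leave behind granulocytes and macrophages. Markers of other cells were present in both groups. Among macrophage markers, 13 of 16 were tested, 0 rose in limma and 1 fell. Their sum was 110157 (105166 to 118487) in nonconfined and 94472.1 (85896.8 to 102097) in LPS-treated libraries without overlap, and *Vsig4* was at 0 in every library. *Gpnmb* was the most abundant after LPS, and in nonconfined libraries the medians of *Gpnmb* (37423.5) and *Csf1r* (37356.7) were nearly equal. Of 16 neutrophil markers, *Lcn2* rose and *Retnlg* fell, and the sums of 333902 (276912 to 426036) and 396936 (370518 to 426328) overlapped, with *S100a9* the most abundant. The median log2 fold change of the 16 genes was -0.50, whereas *Lcn2* went from 21082 to 86378 normalized counts. Nonconfined sums were 276912 to 281730 under the cPLA_2_ WT and 386073 to 426036 under the cPLA_2_ KO label. In every marker list but that of plasmacytoid DCs, all nonconfined sums were higher under the cPLA_2_ KO label. The sum of 10 eosinophil markers, of which *Prg2* was the most abundant and 0 were called by limma, was 57406.9 (34727.1 to 85847.1) in nonconfined and 39646.4 (28509.5 to 49390.5) in LPS-treated libraries, again with overlap. Here the nonconfined sums were 34727.1 to 34906.5 under the cPLA_2_ WT and 79907.4 to 85847.1 under the cPLA_2_ KO label. Mast cell and basophil markers summed to 13134.9 (10682.2 to 15943.2) and 20656.8 (19648.3 to 22076.7), and in the LPS-treated libraries the most abundant of them was *Hdc*, the only one of 11 tested that rose, whereas *Tpsab1* was at 0 throughout. The median log2 fold change of these 11 genes was -0.26, whereas *Hdc* went from 862 to 10652 normalized counts, so that the higher sum does not describe the rest of the list. Monocyte markers were higher in every LPS-treated library, with sums of 98455.7 (91604.1 to 103599) and 142307 (137072 to 147189). As shares of all normalized counts they overlapped (0.267% to 0.294% and 0.277% to 0.306%), as did mast cell markers, whereas eosinophil markers no longer did. *Chil3* led the monocyte sum, *Ly6c2*, *Fn1*, *Plac8* and *Vcan* rose, and 2 genes fell, among them *Ccr2*. Lymphocyte markers summed to 2860.96 (2529.43 to 3531.36) and 706.969 (510.204 to 813.526), and most of this was *Cd3g*, a chain of the T cell receptor complex that fell with *Cd3e* and *Cd3d* while 2 genes rose, among them *Cd8b1*. Plasmacytoid DC markers summed to 11251.2 (10574.9 to 12191.7) and 24763.3 (23786.8 to 28270.6), mostly through the interferon-stimulated gene *Bst2*, which rose with *Tcf4* and *Ccr9* while *Siglech* fell. Stromal and erythroid markers were close to absent, at 179.735 (133.645 to 268.75) and 298.29 (224.253 to 347.272), with *Pdgfrb* up, *Col1a1* down and *Alas2* at 0. In bulk libraries, fewer cells of a type and less RNA per cell cannot be told apart. The part of these cells in the results was not tested.

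The genotype labels were checked first with *Pla2g4a* (identifier GSMG0002495, chromosome 1, bases 149705372 to 149837041 of GRCm39, minus strand). Nonconfined libraries labelled cPLA_2_ KO held 548, 542 and 533 normalized counts of this gene in replicates 1, 2 and 3, and those labelled cPLA_2_ WT held 697, 686 and 770. In LPS-treated libraries the values were 1065, 1032 and 1028 under the cPLA_2_ KO label and 1005, 969 and 967 under the cPLA_2_ WT label. The label thus went with lower *Pla2g4a* in nonconfined libraries (log2 fold change -0.41, adjusted p = 0.00213), whereas the LPS-treated libraries labelled cPLA_2_ KO held slightly more (0.09, adjusted p = 1). Y-linked genes (*Ddx3y*, *Eif2s3y*, *Kdm5d* and *Uty*) summed to 4.6, 1.7 and 2.9 in nonconfined libraries labelled cPLA_2_ WT and to 1748, 1785.4 and 1717.8 in those labelled cPLA_2_ KO. The LPS-treated libraries labelled cPLA_2_ WT held 2330, 3.7 and 1271.3, and those labelled cPLA_2_ KO held 4.2, 2589.3 and 1426.2. The libraries labelled LPS cPLA_2_ WT 1, LPS cPLA_2_ WT 3 and LPS cPLA_2_ KO 1 therefore differed in these genes from the nonconfined libraries with their label. They are called against their label below in this sense only. Y-linked genes tell of sex, not of genotype, and the *Pla2g4a* values did not set these libraries apart from the other LPS-treated ones. *Xist*, the RNA of the inactive X chromosome in female cells, was present in all 12 libraries, at 23517 (range 12153 to 33681) in nonconfined and 26761 (16450.2 to 30960.2) in LPS-treated libraries. Deviations from the group mean, correlated across 11894 genes, paired nonconfined libraries by label, with correlations of 0.20 to 0.48 within and -0.65 to -0.46 between labels. Among LPS-treated libraries they did not, at -0.54 to 0.01 within and -0.59 to 0.52 between labels. Without any grouping this value is -0.2. The highest values joined the libraries labelled cPLA_2_ KO 1 and cPLA_2_ WT 2 (0.52), then cPLA_2_ KO 2 and cPLA_2_ WT 1 (0.25). The libraries labelled cPLA_2_ KO 3 and cPLA_2_ WT 3 stood at -0.12. Genes are not independent replicates in these correlations. Eosinophil marker sums were nearly equal in the same pairs (28525.8 and 28509.5, 49390.5 and 49175.4, 40024.5 and 39268.3). Whether such pairs share mice or cultures was not tested, and p-values count all 6 LPS-treated libraries as separate. Genotype is used below only as what the libraries are labelled.

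LPS-treated DCs had a different transcriptome from nonconfined DCs. Of 16935 genes tested, 2694 rose (15.9%) and 2316 fell (13.7%), and 12354 had an adjusted p under 0.05 whatever their fold change. The changes upward were larger, with 1141 genes higher and 522 lower by more than 2 on the log2 scale, and 224 higher and 24 lower by more than 4. In 9400 genes (55.5%) the values of the groups did not overlap, among them 2370 genes that rose and 1930 that fell. Of the genes called, 53.8% had risen. This split depended on the scaling, and when all libraries were brought to equal totals, 1753 genes rose and 4447 fell (28.3% of the calls upward). The median log2 fold change moved with it, from 0.03 over the genes tested to -0.46. Any change of a gene or list is to be read against this shift. Without the 3 LPS libraries whose Y-linked genes went against their label, 2613 genes rose and 2271 fell, and 4641 of the genes called in all libraries were called again. In libraries labelled cPLA_2_ WT alone 2660 rose and 2193 fell, and in those labelled cPLA_2_ KO alone 2606 rose and 2189 fell. No gene called in the pooled fit was called in the opposite direction in any of these. These settings share libraries or hold LPS-treated libraries that resembled each other across labels, so that they are not independent checks.

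**Figure D1:**
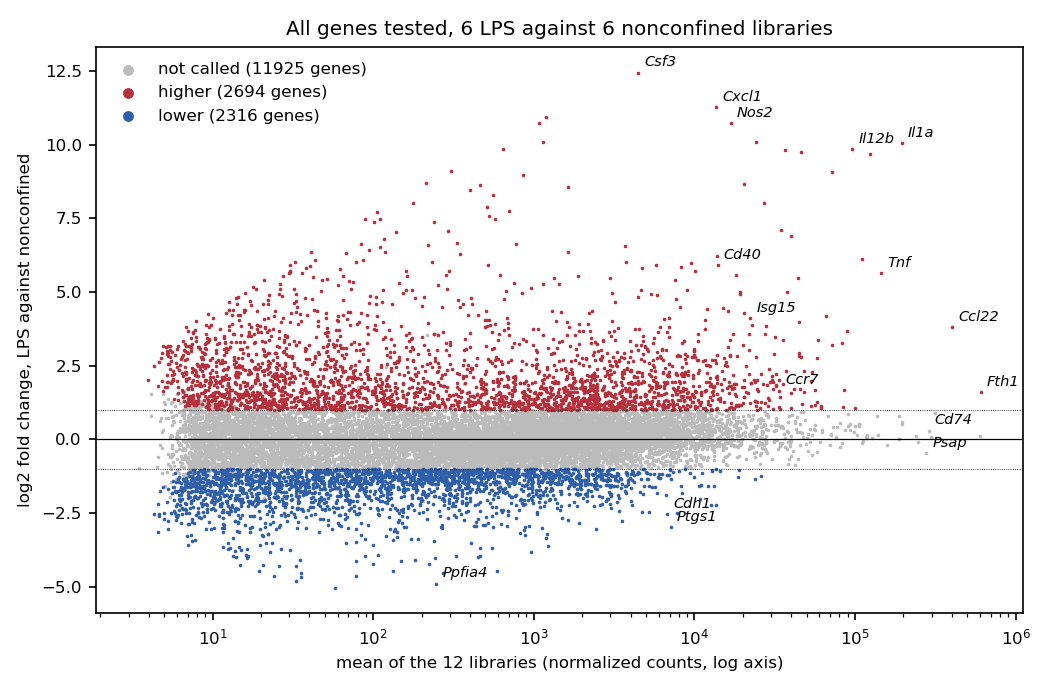
Log2 fold change of LPS-treated against nonconfined libraries (y axis) for each of 16935 genes against its mean over the 12 libraries in normalized counts (x axis, log scale). Red points are the 2694 genes that rose, blue points the 2316 that fell, gray points the rest, and dotted lines mark log2 fold changes of 1 and -1.

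The balance of calls differed with abundance, taken as the mean over all 12 libraries. A rise itself raises this mean and a fall lowers it, so that the split favors rises in the upper bins. No conclusion is drawn from this balance. Of the 774 genes with the highest means, 227 rose and 16 fell, and of the 5177 genes next in abundance 762 rose and 351 fell. Of 5206 genes with a mean between 100 and 1000, 590 rose and 819 fell, and of 5778 with a mean under 100, 1115 rose and 1130 fell. The total of normalized counts was larger after LPS, with a mean of 48720243 against 34528919, a ratio of 1.41. The 10 genes that gained most made up 1.73% of the nonconfined and 7.62% of the LPS total, and 21.9% of the difference of totals. They were *Ccl22*, *Fth1*, *Il1a*, *Tnf*, *Il1b*, *Acod1*, *Il12b*, *Actb*, *Il1rn* and *Cxcl3*, of which *Actb* was not called. *Fth1*, the heavy chain of the iron store ferritin, was at 286495 (range 260355 to 353848) in nonconfined and 928087 (812824 to 993955) in LPS-treated libraries. Its share of all normalized counts was 0.865% in nonconfined and 1.87% in LPS-treated libraries, and it rose without overlap by 1.61 (SE 0.08, adjusted p = 1.56e-11). The cytoskeletal actin gene *Actb* was present at 222040 (range 212831 to 228487) in nonconfined and 408631 (406227 to 415369) in LPS-treated libraries, below the threshold on the fold change at 0.88. The 5 genes that lost most normalized counts were *Psap*, *Tubb5*, *Tuba1b*, *Ltf* and *Gm2a*. Only *Gm2a*, the activator of ganglioside breakdown in lysosomes, was called among them, from 36029.5 (34624 to 38946) to 15501 (14638 to 16324) normalized counts, a log2 fold change of -1.22 (adjusted p = 2.26e-14).

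Among genes that rose and have a symbol, where the mean reached 100 normalized counts and the groups did not overlap, the 10 largest increases were those of *Csf3*, *Cxcl1*, *U90926*, *Nos2*, *Il10*, *Il23a*, *Il1a*, *Il12b*, *Csf2* and *Ptgs2*. *Csf3* (GSMG0008144, chromosome 11 of GRCm39 from 98592139 to 98594457), which encodes the neutrophil growth factor G-CSF, was all but absent before LPS, with 8 reads in the 6 nonconfined and 53914 in the 6 LPS-treated libraries. It went from 0 (0 to 3.13) to 8941 (7455 to 10248) normalized counts, a log2 fold change of 12.44 (SE 0.36, adjusted p = 1.21e-14). *Csf2*, the gene of GM-CSF itself, had 4 reads in all nonconfined libraries and was at 1268 (1119 to 1531) normalized counts after LPS, an increase of 9.84 (adjusted p = 9.99e-15). *U90926*, which is annotated as a protein-coding gene, had 2 and 14214 reads in the groups. For these genes the fitted size depends on the pseudocount, and with 5 in place of 1 the log2 fold changes were 10.56 for *Csf3*, 7.86 for *Csf2* and 8.81 for *U90926*. Increases of genes with more counts in nonconfined libraries depended on it little, as for *Il1a*, present at 370.4 (range 327 to 412) in nonconfined and 397610 (343042 to 433263) in LPS-treated libraries. *Il1a*, an alarm cytokine of the interleukin-1 family, rose by 10.04 (SE 0.06, adjusted p = 6.24e-23) with every LPS-treated library above every nonconfined one.

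Shares of gene lists below stand beside 15.9% higher and 13.7% lower over all genes. Of 28 genes of the LPS receptor and its signalling chain, 9 rose and 2 fell (32.1% and 7.14%; 5 and 3 genes at equal totals), with a median log2 fold change of 0.72 against 0.03 over all genes (0.22 against -0.46 at equal totals). *Cd14*, the coreceptor that delivers LPS, was present at 1944 (range 1809 to 2102) in nonconfined and 84568 (77902 to 96073) in LPS-treated libraries. The groups were far apart, and *Cd14* rose by 5.47 (SE 0.05, adjusted p = 1.02e-20), the largest change of the list. *Tlr4* itself was at 6039 (range 5804 to 6149) in nonconfined and 4369 (4324 to 4576) in LPS-treated libraries. These ranges did not overlap either, but its log2 fold change of -0.45 (adjusted p = 7.15e-10) was not called. *Myd88*, the adaptor to NF-kB, at 2844 (range 2741 to 3013) in nonconfined and 5449 (5209 to 5883) in LPS-treated libraries, and *Ly96*, which encodes MD-2, at 275 (range 213 to 359.6) in nonconfined and 525 (393 to 627) in LPS-treated libraries, were higher in every LPS-treated library and stayed short of a call at 0.94 and 0.91. *Irak3*, an inactive kinase that restrains this pathway, rose from 721 (672 to 905) to 5795 (5607 to 6060.3) normalized counts (2.97), and so did *Ticam2*, *Irak2*, *Traf6*, *Ikbkb*, *Ikbkg*, *Tbk1* and *Ikbke*. Both genes that fell belong to the related receptor RP105 and its partner MD-1. *Cd180*, which encodes RP105 and was named after its values were seen, went from 6866 (6779 to 7134) to 3165 (3049.8 to 3324) normalized counts (-1.13, adjusted p = 6.71e-15). *Ly86*, which encodes MD-1, went from 284 (153 to 407) to 110.2 (53.1 to 136) normalized counts with a log2 fold change of -1.47 (adjusted p = 0.00036), which was -0.88 and not called in libraries labelled cPLA_2_ WT alone.

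Nearly all genes of NF-kB and its inhibitors rose. Of 18 tested, 17 rose and 0 fell in limma, with a median of 2.56, and *Cyld*, a deubiquitinase that restrains NF-kB, was the exception at 0.16 (2508 and 2828 normalized counts). *Nfkb1*, the precursor of p50, was present at 9413 (range 8967 to 9563) in nonconfined and 49132 (47945 to 51208) in LPS-treated libraries (2.39). *Nfkb2*, the precursor of p52, was at 7451 (range 6915 to 7826) in nonconfined and 55254 (52161 to 58039.5) in LPS-treated libraries, and *Relb*, its partner in the noncanonical pathway, at 2772 (range 2605 to 2947) in nonconfined and 12883 (11480.1 to 14339.9) in LPS-treated libraries. In each of these subunits the lowest LPS-treated library lay above the highest nonconfined one, and *Nfkb2* rose by 2.91 (adjusted p = 9.19e-19) and *Relb* by 2.20 (adjusted p = 1.11e-15). *Nfkbia*, which encodes IkBa, was present at 4802 (range 4225 to 5286) in nonconfined and 38858 (36023 to 43133) in LPS-treated libraries, an increase of 3.04 (SE 0.06, adjusted p = 8.26e-17). *Tnfaip3*, which encodes the ubiquitin editor A20, was at 1180.0 (range 1149 to 1346) in nonconfined and 37496 (34165 to 40455) in LPS-treated libraries and rose by 4.94 (SE 0.05, adjusted p = 5.33e-20). *Nfkbiz*, the nuclear inhibitor protein that is needed for a set of secondary response genes, had the largest change of the list, from 294 (258 to 331) to 18767 (17779.7 to 19885) normalized counts, a log2 fold change of 6.0.

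Inflammatory cytokines were the list with the largest median change. Of 24 genes tested, 22 rose and 0 fell in limma, with a median of 5.49, and *Il18* and *Tgfb1* were not called. *Tnf* (GSMG0024676, chromosome 17 from 35418343 to 35420984) was already expressed by nonconfined cells and was present at 5583 (range 5014 to 6187) in nonconfined and 290221 (206871 to 362627) in LPS-treated libraries. It rose by 5.65 (SE 0.13, adjusted p = 5.12e-16), and its ranges were far apart. *Il1b*, made as an inactive precursor, was present at 301 (range 259.7 to 337) in nonconfined and 249464 (235313 to 259130) in LPS-treated libraries, an increase of 9.70 (SE 0.06, adjusted p = 5.26e-23) without overlap. *Il6* was present at 97.8 (range 75.4 to 133) in nonconfined and 39775 (37537 to 44736) in LPS-treated libraries and rose by 8.66 (SE 0.11, adjusted p = 3.58e-19). *Il12b*, the p40 subunit that interleukin-12 and interleukin-23 share, was present at 203 (range 169.7 to 252) in nonconfined and 186604 (163396 to 228621) in LPS-treated libraries. Its partners had few counts in nonconfined cells, with *Il12a* (p35) at 4.29 (range 1.97 to 18.6) in nonconfined and 1412 (1048 to 1722) in LPS-treated libraries and *Il23a* (p19) at 1.64 (range 0 to 3.05) in nonconfined and 2352 (1993 to 2456) in LPS-treated libraries. All of these subunits were higher in each LPS-treated library, by 9.84 for *Il12b*, 7.74 for *Il12a* and 10.09 for *Il23a* (6.99 for *Il12a* and 8.5 for *Il23a* with a pseudocount of 5). *Il27*, which acts with the product of *Ebi3*, went from 37.4 (34.4 to 43.7) to 3165 (3105 to 3442) normalized counts (6.37, adjusted p = 3.52e-20). The gene of the anti-inflammatory cytokine interleukin-10, *Il10*, had 4 reads in nonconfined and 12889 in LPS-treated libraries and was at 2132 (1974 to 2405) normalized counts after LPS, a log2 fold change of 10.72 (adjusted p = 8.10e-15) that was 8.63 with a pseudocount of 5. *Il1rn*, the antagonist of the interleukin-1 receptor, rose from 12779 (12274 to 13982) to 166578 (159003 to 168623) normalized counts (3.68). *Il15*, a cytokine for NK and memory T cells, was at 261 (range 253 to 356) in nonconfined and 1252 (1074 to 1386) in LPS-treated libraries, an increase of 2.16 (adjusted p = 7.25e-13). *Tgfb1*, which restrains lymphocytes, was at 10023 (range 9339 to 11580.5) in nonconfined and 12837 (12325 to 13927) in LPS-treated libraries, and its log2 fold change of 0.35 turned to -0.14 at equal totals.

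Chemokines rose with them. Of 21 tested, 20 rose and 0 fell in limma, with a median of 3.37, and *Ccl6* was the exception, at 163076 (range 144511 to 196078) in nonconfined and 148499 (137436 to 155872) in LPS-treated libraries with overlap. *Cxcl1*, an attractant of neutrophils, was present at 10.5 (range 4.57 to 16.5) in nonconfined and 27084 (23477 to 30836) in LPS-treated libraries, an increase of 11.28 (SE 0.20, adjusted p = 3.13e-17). *Cxcl3*, of the same family, was at 267 (range 210.3 to 311) in nonconfined and 142735 (121808 to 163815) in LPS-treated libraries and rose by 9.08 (adjusted p = 2.48e-20), and *Cxcl2*, named after its values were seen, went from 112 (81.9 to 126) to 92253 (70749 to 114072) normalized counts (9.74). Ligands of CXCR3, which call activated T cells and are induced by interferon, rose as well. *Cxcl10* was present at 501 (range 412 to 609.6) in nonconfined and 69054 (59287 to 77050.4) in LPS-treated libraries, an increase of 7.09 (SE 0.09, adjusted p = 7.86e-19). *Cxcl9* was at 5.30 (range 3.05 to 10.2) in nonconfined and 659 (613 to 717) in LPS-treated libraries and rose by 6.67 (adjusted p = 3.03e-14), or 5.97 with a pseudocount of 5. Ligands of CCR4, which draw other T cells and are made by mature DCs, were already abundant before LPS. *Ccl22* (GSMG0053850, chromosome 8 from 95472218 to 95478327) was present at 53625 (range 48696 to 56584) in nonconfined and 752834 (725970 to 773559) in LPS-treated libraries, which raised its share of all normalized counts from 0.154% to 1.54%, and it rose by 3.82 (SE 0.04, adjusted p = 5.33e-20). *Ccl17* was at 16105 (range 12795 to 18079.6) in nonconfined and 148549 (142700 to 160478) in LPS-treated libraries and rose by 3.26 (adjusted p = 1.62e-15). *Ccl5*, which attracts T cells and monocytes, went from 6488 (5426 to 6747) to 64253 (61554 to 69222) normalized counts (3.37, adjusted p = 3.56e-18).

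Every gene of the interferon list rose. All 50 tested were called higher, with a median of 2.57 against 0.03 over all genes, and at equal totals 45 of 50 were still called with a median of 2.07. *Isg15*, a ubiquitin-like protein that is joined to others, was present at 2413 (range 2242 to 2497) in nonconfined and 41840.3 (40514 to 43702) in LPS-treated libraries. *Ifit1*, a sensor of foreign RNA ends, was at 1977 (range 1749 to 2464) in nonconfined and 39158 (34870 to 43878) in LPS-treated libraries. Neither gene had overlapping groups, and they rose by 4.13 (SE 0.03, adjusted p = 2.37e-21) and 4.28 (SE 0.08, adjusted p = 4.78e-17). *Irf7*, the factor that amplifies interferon production, was at 3927 (range 3565 to 4463) in nonconfined and 28823 (28461 to 30646) in LPS-treated libraries (2.88, adjusted p = 3.48e-17). The largest change was that of *Ifi205*, a member of the p200 family, from 274 (235 to 356) to 16004 (15865 to 16805) normalized counts (5.83). The smallest was that of *Irf9*, the DNA-binding subunit of the complex that type I interferon activates, from 2544 (2339 to 2613) to 4999 (4769 to 5348) normalized counts (1.01, adjusted p = 1.70e-12). *Irf9* lay so close to the threshold that its call was lost without the library labelled LPS cPLA_2_ KO 2, LPS cPLA_2_ WT 1, nonconfined cPLA_2_ WT 2 or nonconfined cPLA_2_ WT 3 (0.99 each), in edgeR and with TMM scaling (0.94), in DESeq2 (0.98), in libraries labelled cPLA_2_ KO alone (0.97) and at equal totals (0.51). *Bst2*, which tethers virus particles and is also on the list of plasmacytoid DC markers, went from 10625 (9922 to 11588) to 22525 (21781 to 25688) normalized counts (1.11, adjusted p = 2.02e-12) and was not called at equal totals (0.61). *Ifnb1*, the gene of interferon-beta on the cytokine list, was among the genes that rose.

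Promoters of genes that rose, genes that fell and all genes tested were searched for short cores of known motifs, a step planned beforehand. The windows were those of RefSeq, 250 bases before to 50 after a start of transcription, on GRCm38.p6. GAAANNGAAA, the core of the interferon-stimulated response element, and GGGNNTTTCC, a core of NF-kB sites, were searched on both strands. Windows were found for 1636 of 2130 genes with a symbol that rose, 1502 of 1917 that fell and 10812 of 13742 tested. The interferon core was in 7.89% of genes that rose, 3.53% of those that fell and 3.93% of all tested. Some genes have several windows, and per window these shares were 6.49%, 2.94% and 3.24%, beside 3.44% of all 32851 RefSeq windows. The NF-kB core was in 3.06%, 2.26% and 2.16% of these genes, and per window in 2.75%, 1.86% and 1.81%, beside 1.63% of all. In the interferon list 23 of 38 genes (60.5%) held the interferon core, in the chemokine list 5 of 13 (38.5%) held the NF-kB core, and in the NF-kB list 5 of 15 (33.3%) and the cytokine list 3 of 17 (17.6%) did. In lists without a call by limma on the deposited scale, the interferon core was in 5 of 34 ribosomal protein genes (14.7%) and 2 of 29 genes of oxidative phosphorylation (6.9%), and the NF-kB core in 0 and 1 of them. Both cores together were in 5 of the 1636 genes that rose. A match is a description of the sequence, not a site that was measured, and a window without one says nothing about the factor.

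The promoters of *Nfkb2*, *Nfkbia*, *Tnfaip3* and *Il6* are shown as examples of genes that rose and held the NF-kB core, with the match in capitals and each window on the strand of its gene from 5′ to 3′. The windows lie at chr19:46304487-46304786 on the plus strand for *Nfkb2*, chr12:55492598-55492897 on the minus strand for *Nfkbia*, chr10:19015361-19015660 on the minus strand for *Tnfaip3* and chr5:30012864-30013163 on the plus strand for *Il6*, all on GRCm38.p6 from RefSeq. *Nfkb2* and *Il6* held the core as spelled, and *Nfkbia* and *Tnfaip3* held it on the opposite strand, so that its reverse complement is printed.
Nfkb2: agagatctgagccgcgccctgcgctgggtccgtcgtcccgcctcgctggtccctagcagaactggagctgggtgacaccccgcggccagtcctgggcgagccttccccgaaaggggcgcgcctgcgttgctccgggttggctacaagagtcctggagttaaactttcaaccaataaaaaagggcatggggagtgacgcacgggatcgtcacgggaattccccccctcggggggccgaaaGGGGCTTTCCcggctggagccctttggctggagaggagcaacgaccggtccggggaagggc
Nfkbia: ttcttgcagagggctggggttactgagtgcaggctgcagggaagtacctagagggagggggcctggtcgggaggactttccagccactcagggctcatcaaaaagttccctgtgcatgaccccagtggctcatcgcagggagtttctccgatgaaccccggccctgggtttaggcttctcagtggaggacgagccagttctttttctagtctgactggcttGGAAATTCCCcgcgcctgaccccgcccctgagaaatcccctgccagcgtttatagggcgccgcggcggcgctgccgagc
Tnfaip3: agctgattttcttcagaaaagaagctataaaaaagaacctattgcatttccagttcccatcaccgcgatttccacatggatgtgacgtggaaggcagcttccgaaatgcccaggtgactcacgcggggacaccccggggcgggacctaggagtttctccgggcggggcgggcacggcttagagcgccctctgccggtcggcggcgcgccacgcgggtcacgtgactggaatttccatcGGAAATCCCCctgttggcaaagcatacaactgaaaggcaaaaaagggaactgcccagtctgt
Il6: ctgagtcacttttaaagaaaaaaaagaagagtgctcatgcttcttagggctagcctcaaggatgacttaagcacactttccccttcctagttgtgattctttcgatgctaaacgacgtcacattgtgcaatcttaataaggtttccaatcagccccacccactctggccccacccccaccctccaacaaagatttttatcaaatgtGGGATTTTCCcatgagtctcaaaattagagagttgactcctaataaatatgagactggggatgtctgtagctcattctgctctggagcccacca

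Genes that dampen the response rose as well. Of 23 feedback inhibitors tested, 17 rose and 0 fell in limma, with a median of 2.7. *Dusp2*, a phosphatase that inactivates MAP kinases in the nucleus, was present at 73.0 (range 65.0 to 78.5) in nonconfined and 2734 (2605 to 3039.8) in LPS-treated libraries, an increase of 5.26 (SE 0.06, adjusted p = 2.56e-19). Every LPS-treated library was above every nonconfined one. *Dusp6*, which acts on ERK in the cytoplasm, was in the opposite order with no overlap, at 1231 (range 1149 to 1258) in nonconfined and 615 (548 to 679.8) in LPS-treated libraries. Its log2 fold change of -0.97 was short of a call.

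Genes of DC maturation and T cell costimulation rose. Of 18 costimulatory and coinhibitory ligands tested, 15 rose and *Vsir* fell, with a median of 2.28. *Cd40* (GSMG0031240, chromosome 2 from 164897545 to 164914868), which receives help from T cells, was present at 468 (range 411 to 482) in nonconfined and 27322 (25947 to 28428) in LPS-treated libraries. It separated the groups widely and rose by 5.90 (SE 0.04, adjusted p = 3.80e-22). *Cd80* was at 2269 (range 2199.8 to 2338) in nonconfined and 8972 (7969 to 10003) in LPS-treated libraries and *Cd86* at 3551 (range 3097 to 4172) in nonconfined and 12379 (11454 to 12645) in LPS-treated libraries, the ligands of CD28 and CTLA-4. Both rose without overlap, by 1.97 (adjusted p = 6.93e-15) and 1.78 (adjusted p = 1.04e-12). *Cd274*, which encodes the inhibitory ligand PD-L1, was at 2884 (range 2466 to 3039) in nonconfined and 18233 (17374 to 19594) in LPS-treated libraries (2.7, adjusted p = 3.43e-17), so that activating and inhibitory ligands were higher in the same libraries. *Tnfsf15*, a ligand of the TNF family for death receptor 3, had the largest change of the list, from 213 (184 to 234) to 54729 (51688 to 56609.8) normalized counts (8.02, adjusted p = 1.61e-22). *Vsir*, which encodes the inhibitory receptor VISTA, went from 7806 (7041 to 8449.5) to 2497 (2253 to 2961) normalized counts (-1.60, adjusted p = 3.81e-12), the only ligand of the list that fell.

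Of 30 genes known from migratory and mature DCs, 23 rose and 0 fell in limma, with a median of 1.93. *Ccr7* (GSMG0009949, chromosome 11 from 99035025 to 99045904), the receptor that leads DCs to lymph nodes, was already abundant in nonconfined libraries. It was present at 15990.2 (range 15734 to 17366) in nonconfined and 51077 (47815 to 54853) in LPS-treated libraries, and rose by 1.66 (SE 0.04, adjusted p = 1.21e-15) with all LPS-treated libraries above all others. *Fscn1*, which bundles actin in the processes of mature DCs, was at 16215 (range 15005 to 17384) in nonconfined and 80124 (79322 to 81554) in LPS-treated libraries, an increase of 2.31 (adjusted p = 8.96e-18). *Cd83*, a surface marker of mature DCs that stabilizes MHC class II, was at 6338 (range 5959 to 6843) in nonconfined and 35499.9 (34734 to 36803) in LPS-treated libraries (2.49, adjusted p = 2.56e-18). The largest change was that of *Apol7c*, an apolipoprotein L gene, from 7096 (5847 to 7923) to 126433 (105987 to 144218) normalized counts (4.17).

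**Figure D2:**
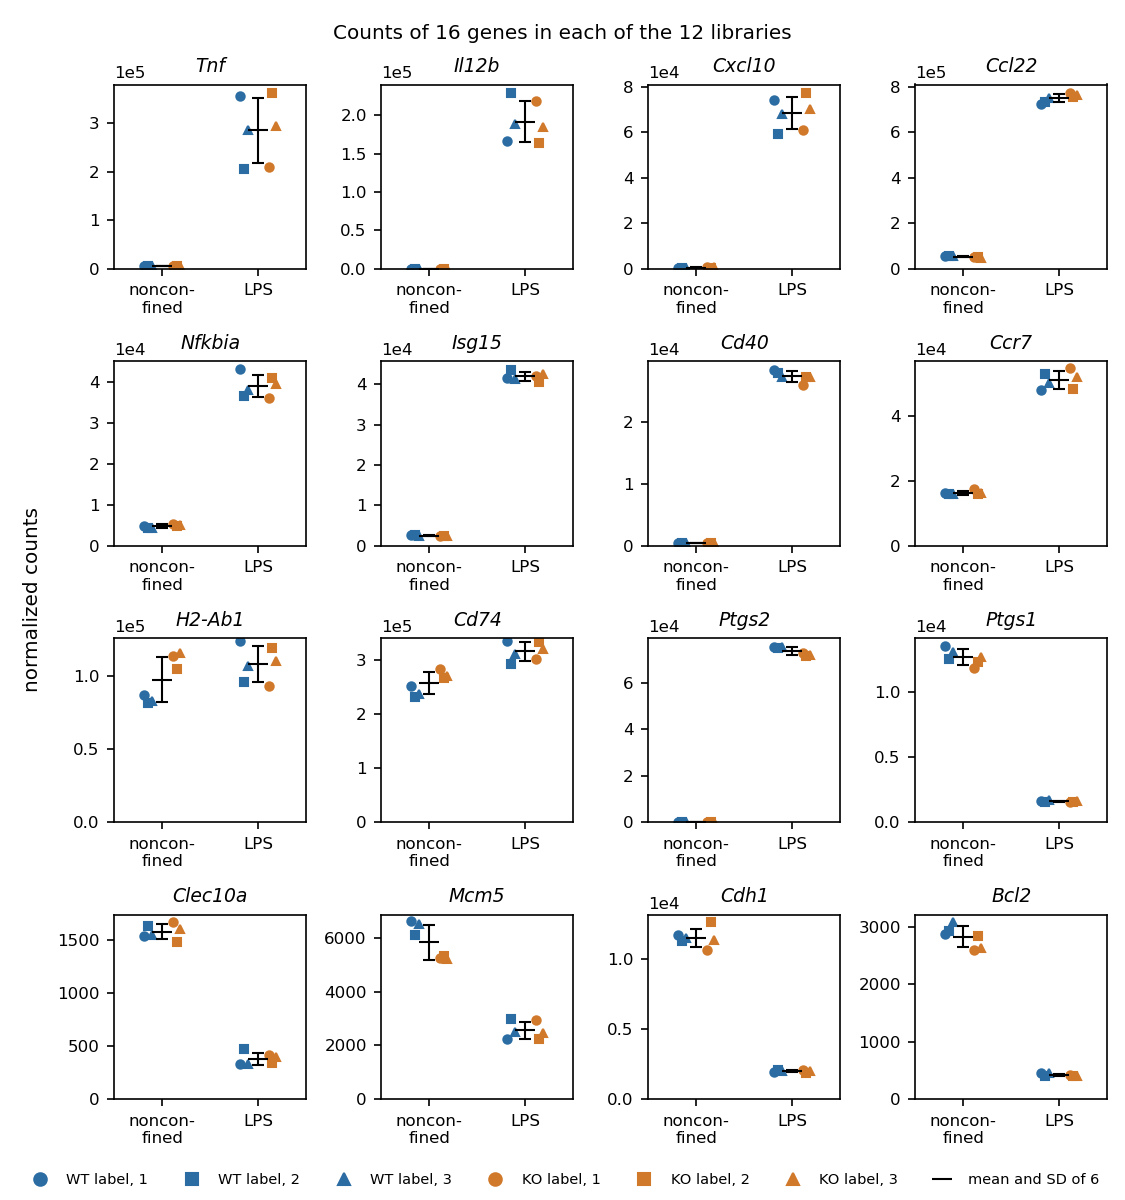
Normalized counts (y axes, linear and starting at 0) of 16 genes in each of the 6 nonconfined and 6 LPS-treated libraries. Color gives the genotype label and the symbol the replicate number, horizontal lines are means and bars 1 SD of 6 libraries, and *H2-Ab1* is the only gene shown whose groups overlap.

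Of 19 genes of antigen presentation on MHC class II, *Cd83* and *Rfx5* rose (10.5%) and *H2-DMa* fell (5.26%), or 1 and 4 at equal totals, and the median of 0.12 turned to -0.38 at equal totals, against -0.46 over all genes. *H2-Ab1*, a chain of the I-A molecule, was present at 95997 (range 81989 to 115984) in nonconfined and 109035 (93508 to 124202) in LPS-treated libraries. These groups overlapped, and its log2 fold change was 0.16 (SE 0.10, adjusted p = 0.146) and -0.34 at equal totals. It was 0.37 in libraries labelled cPLA_2_ WT and -0.05 in those labelled cPLA_2_ KO. *Ciita*, the master regulator of class II transcription, was at 8854 (range 8091 to 10235) in nonconfined and 11994 (11455 to 13909) in LPS-treated libraries with a log2 fold change of 0.46 that was not called and turned to -0.04 at equal totals. *Cd74* had no overlap and a log2 fold change of 0.30, not called and -0.20 at equal totals. *H2-DMa*, part of the peptide editor, fell from 18029.9 (17250.4 to 19461) to 6013 (5786 to 6378) normalized counts (-1.59, adjusted p = 1.80e-15). *Rfx5*, a factor of class II promoters named after its values were seen, rose from 214 (165 to 272) to 543 (509.5 to 626) normalized counts (1.37, adjusted p = 3.43e-09), a call that was lost at equal totals (0.88). In class I presentation and the immunoproteasome, 10 of 24 genes rose (6 at equal totals) and 0 fell in limma, with a median of 0.86 (0.36 at equal totals). *Tap1*, which pumps peptides into the endoplasmic reticulum, was at 6408 (range 6251 to 6659) in nonconfined and 19634 (18721 to 19816) in LPS-treated libraries, an increase of 1.60 (SE 0.03, adjusted p = 4.03e-17) without overlap. *H2-K1*, a classical class I chain that shares sequence with its neighbors, was at 26037 (range 24412 to 26794) in nonconfined and 53629 (51357 to 56122) in LPS-treated libraries. It rose by 1.05 (adjusted p = 3.77e-14), and was not called in edgeR and with TMM scaling (0.98 each) or at equal totals (0.55). *H2-Q7*, a nonclassical chain, had the largest change, from 398 (333 to 444) to 3235 (3016 to 3713) normalized counts (3.05).

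Of 37 receptors for uptake and for microbial patterns, 11 rose (29.7%) and 4 fell (10.8%), or 10 and 9 at equal totals, with a median of 0.37 that turned to -0.12 at equal totals. *Clec4e*, which encodes the sensor Mincle, had the largest change, with values of 1133 (range 919.7 to 1352) in nonconfined and 36966 (30184 to 43040.2) in LPS-treated libraries. It rose by 5.02 (SE 0.10, adjusted p = 1.67e-16). The scavenger receptor gene *Cd36* was at 1722 (range 1578 to 1906) in nonconfined and 6468 (6197 to 6749) in LPS-treated libraries, without overlap (1.90, adjusted p = 1.60e-15), and *Marco*, another scavenger receptor gene, named after its values were seen, rose from 428 (144 to 776) to 10163 (9157 to 11519) normalized counts (4.94, adjusted p = 8.90e-09). *Clec10a*, a lectin of immature DCs and macrophages, was at 1574 (range 1474 to 1667) in nonconfined and 368 (329.5 to 468) in LPS-treated libraries. It fell without overlap, with a log2 fold change of -2.06 (SE 0.08, adjusted p = 6.60e-13). The lectin gene *Cd209a* fell from 163 (153 to 188) to 10.2 (6.17 to 15.9) normalized counts (-3.95, adjusted p = 1.49e-11), and so did *Clec9a*, a receptor for dead cells, from a low level, from 17.9 (11.6 to 24.2) to 4.29 (0 to 9.15) normalized counts (-2.01, adjusted p = 0.000987; -1.3 with a pseudocount of 5). *Tlr8*, the remaining gene of this list that fell and, like *Cd209a* and *Clec9a*, named after its values were seen, lay at the threshold, from 896 (860.3 to 966) to 461 (381 to 524) normalized counts (-1.0). It was not called without the libraries labelled LPS cPLA_2_ KO 3 (-0.95), LPS cPLA_2_ WT 2 (-0.99), nonconfined cPLA_2_ KO 2 (-0.99) or nonconfined cPLA_2_ WT 3 (-0.98), nor in libraries labelled cPLA_2_ WT alone (-0.98) or with a pseudocount of 5 (-0.99). *Mrc1*, the mannose receptor, was at 4912 (range 3723 to 6418) in nonconfined and 3310.2 (2368 to 4049) in LPS-treated libraries with overlap. *Fcgr3*, an activating receptor for IgG, was at 9502 (range 9298 to 9707) in nonconfined and 5931 (5523 to 6451) in LPS-treated libraries, and *Trem2*, a receptor for lipids and debris, at 2233 (range 2111 to 2445) in nonconfined and 1482 (1451 to 1552) in LPS-treated libraries. The last 2 did not overlap, and none of the 3 was called.

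Of 25 receptors for chemokines and lipid mediators, 11 rose and 6 fell (44% and 24%), or 11 and 12 at equal totals, and the median of -0.39 was 0.35 in libraries labelled cPLA_2_ WT alone and -0.88 at equal totals. *Fpr1*, which detects bacterial formyl peptides, had the largest increase and was present at 1357 (range 741 to 2146) in nonconfined and 22248 (14447 to 28703) in LPS-treated libraries. It rose by 4.06 (SE 0.28, adjusted p = 1.16e-09) without overlap. *Ccr2*, which brings monocytes to inflamed tissue, was at 1608 (range 955 to 2167) in nonconfined and 469 (242 to 759) in LPS-treated libraries, a decrease with a log2 fold change of -1.71 (SE 0.29, adjusted p = 5.66e-05). *S1pr4*, a receptor for sphingosine-1-phosphate, fell from 2328 (2069.5 to 2601) to 647 (589 to 712) normalized counts (-1.84, adjusted p = 1.57e-13). *Ptger3*, a receptor for prostaglandin E2 named after its values were seen, had the largest decrease, from 116 (111 to 151) to 15.4 (9.87 to 20.2) normalized counts (-3.01, adjusted p = 2.84e-10), whereas *Ptger2* and *Ptger4*, which bind the same prostaglandin, rose.

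Of 18 genes of arginine, nitric oxide, itaconate and tryptophan metabolism, 10 rose and 2 fell, with a median of 1.78. *Nos2*, the inducible nitric oxide synthase, was present at 20.8 (range 11.2 to 24.4) in nonconfined and 33053 (24107 to 42582) in LPS-treated libraries. Its groups were far apart, an increase of 10.73 (SE 0.18, adjusted p = 1.05e-17). *Acod1*, which makes itaconate, was at 3158 (range 3009.5 to 3264) in nonconfined and 216331 (198646 to 236264) in LPS-treated libraries and rose by 6.11 (SE 0.04, adjusted p = 5.18e-22). *Kmo*, an enzyme of tryptophan breakdown named after its values were seen, was among the genes that fell, from 1813 (1525 to 2086) to 756 (679.9 to 787) normalized counts (-1.27, adjusted p = 3.49e-10).

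Of 16 genes listed for prostanoid and leukotriene synthesis, phospholipases among them, 2 rose and 6 fell (12.5% and 37.5%; 2 and 9 at equal totals), with a median of -0.76 (-1.25 at equal totals). *Ptgs2* (GSMG0000968, chromosome 1 from 149975782 to 149983985), the inducible cyclooxygenase COX-2, was present at 80.9 (range 70.5 to 95.1) in nonconfined and 73885 (71446 to 75469) in LPS-treated libraries. *Ptgs1* (GSMG0029219, chromosome 2 from 36120437 to 36142281), the constitutive COX-1, was at 12587 (range 11764 to 13495) in nonconfined and 1608 (1515 to 1666) in LPS-treated libraries. The groups of both genes were far apart in opposite directions, with log2 fold changes of 9.81 (SE 0.06, adjusted p = 5.26e-23) for *Ptgs2* and -2.98 (SE 0.04, adjusted p = 7.08e-19) for *Ptgs1*. *Ptges*, which makes prostaglandin E2 downstream of COX-2, rose from 113 (78.4 to 145) to 7552 (5493 to 8887) normalized counts (6.03, adjusted p = 6.03e-15). Of the leukotriene branch, *Alox5*, 5-lipoxygenase, fell from 17279 (16939.9 to 18149) to 4283 (4139.7 to 4599) normalized counts (-2.01, adjusted p = 1.08e-17), and *Lta4h*, leukotriene A4 hydrolase, from 16354 (15804 to 17428) to 5552 (5274 to 6068) normalized counts (-1.55, adjusted p = 7.27e-15). *Hpgds*, the synthase of prostaglandin D2, fell from 4474 (3878 to 4984) to 1538 (1182 to 1770.1) normalized counts (-1.58, adjusted p = 5.58e-10), and *Pla2g15*, a lysosomal phospholipase, from 5209.6 (4884 to 5782) to 1674 (1577 to 1776) normalized counts (-1.65, adjusted p = 9.79e-15). *Ltc4s*, leukotriene C4 synthase, fell from 1265 (1208 to 1302) to 624 (561 to 751) normalized counts (-1.01) at the threshold, and was not called without the library labelled LPS cPLA_2_ KO 1 (-0.98) or LPS cPLA_2_ WT 2 (-0.99), in libraries labelled cPLA_2_ KO alone (-0.98) or without the 3 LPS libraries against their label (-0.96). *Ptges*, *Alox5*, *Lta4h*, *Hpgds*, *Pla2g15* and *Ltc4s* were named after their values were seen. *Pla2g4a*, whose product releases arachidonic acid, was higher in all LPS-treated libraries, at 617 (range 533 to 770.4) in nonconfined and 1016 (967 to 1065) in LPS-treated libraries, and not called at 0.70 (SE 0.09, adjusted p = 1.66e-06). Its log2 fold change was 0.45 in libraries labelled cPLA_2_ WT and 0.94 in those labelled cPLA_2_ KO. This difference of 0.49 in limma (adjusted p = 0.0229) was too small for a call.

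Of 23 glycolysis genes tested, 15 rose (65.2%) and 0 fell in limma, or 9 and 1 at equal totals, with a median of 1.31 (0.81 at equal totals). *Slc2a1*, the glucose transporter GLUT1, was present at 2620.1 (range 2481 to 2862) in nonconfined and 12366 (9828 to 15491) in LPS-treated libraries, and *Hk2*, the hexokinase that opens the pathway, at 3000.4 (range 2640.5 to 3199) in nonconfined and 11222 (8981 to 14662) in LPS-treated libraries. Both were higher in each LPS-treated library and rose by 2.25 (SE 0.09, adjusted p = 8.73e-13) and 1.94 (SE 0.10, adjusted p = 1.34e-11). *Slc2a6*, a transporter of the lysosomal membrane, had the largest change, from 3889.7 (3444 to 4702) to 26891 (25815 to 27845) normalized counts (2.75). Of 40 subunits of oxidative phosphorylation, 0 were called by limma in either direction, or 0 higher and 2 lower at equal totals. Their median of 0.04 was -0.46 at equal totals and -0.03 in edgeR and with TMM scaling.

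Of 28 genes of cholesterol and fatty acid synthesis, 4 rose and 4 fell (14.3% each), or 1 and 6 at equal totals, and the median of 0.14 was -0.36 at equal totals and -0.01 in libraries labelled cPLA_2_ WT alone. *Idi1*, counted together with *Idi1-ps1*, an isomerase of the isoprenoid chain, rose from 9316 (7921 to 10130.3) to 31648 (28591 to 33648) normalized counts (1.79, adjusted p = 1.63e-13), and so did *Hmgcs1* (1.28) and *Hsd17b7* (1.30). The last 2 were not called at equal totals (0.78 and 0.80). The genes that fell were those of fatty acid elongation and desaturation *Elovl6*, from 1952 (1532 to 2210.2) to 495 (429.6 to 591) normalized counts (-1.89, adjusted p = 1.41e-10), and *Fads1* (-1.59), fatty acid synthase *Fasn* (-1.26) and the last enzyme of cholesterol synthesis *Dhcr7* (-1.70). Of these genes, *Hmgcs1*, *Hsd17b7*, *Fads1*, *Fasn* and *Dhcr7* were named after their values were seen. Among 19 genes of cholesterol efflux and lipid handling, 7 rose and *Nceh1* fell (36.8% and 5.26%), or 4 and 2 at equal totals, with a median of 0.43 (-0.06 at equal totals). *Abca1*, which exports cholesterol, was at 536 (range 263 to 727) in nonconfined and 6056 (3669 to 6439) in LPS-treated libraries. It rose by 3.51 (SE 0.24, adjusted p = 8.10e-10) with no overlap, whereas *Apoe*, which carries exported lipid, was at 173 (range 149 to 239) in nonconfined and 179 (161 to 212) in LPS-treated libraries with overlap and without a call. *Nceh1*, a cholesterol ester hydrolase, fell from 7993 (7606 to 8566) to 1419 (1167 to 1744) normalized counts (-2.48, adjusted p = 3.60e-14).

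Genes of cell division fell. Of 36 tested, 26 fell and only *Ccnd2* rose, with a median of -1.27 (-1.77 at equal totals against -0.46 over all genes). *Mcm5*, a subunit of the helicase that opens DNA for replication, was present at 5710.1 (range 5209.6 to 6641) in nonconfined and 2467 (2228 to 2967) in LPS-treated libraries. The groups did not overlap, and its log2 fold change was -1.19 (SE 0.08, adjusted p = 1.39e-09). *Tk1*, the thymidine kinase of dividing cells, had the largest decrease, from 1400.5 (1259 to 1549.9) to 313 (225 to 388) normalized counts (-2.23, adjusted p = 7.31e-11). *Mki67*, which encodes the proliferation antigen Ki-67, did not share this, with 3342 (range 2237 to 4189) in nonconfined and 3200.3 (2637 to 3697) in LPS-treated libraries, overlap and a log2 fold change of -0.02 (adjusted p = 0.896) that was 0.16 in libraries labelled cPLA_2_ KO alone. *Ccnd2*, a cyclin of the entry into the cycle, rose from 2183 (1308 to 2979) to 12065 (10264 to 12592) normalized counts (2.54, adjusted p = 5.23e-10). In 45 cytosolic ribosomal protein genes 0 were called by limma, or 0 higher and 2 lower at equal totals, with a median of -0.18 (-0.67 at equal totals). Of 38 genes of lysosomes and their proton pump, 0 rose in limma and 2 fell, with a median of 0.17 (-0.32 at equal totals). *Tfeb*, the factor that drives lysosomal genes, fell from 2251 (1906 to 2478) to 878 (809 to 967) normalized counts (-1.33, adjusted p = 7.23e-12), and so did *Gusb*, beta-glucuronidase, named after its values were seen, from 12901 (12706 to 13413) to 5883 (5756 to 6004) normalized counts (-1.14, adjusted p = 1.42e-15).

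Of 44 actin, podosome and motility genes, 10 rose and *Mmp9* fell (22.7% and 2.27%), or 8 and 3 at equal totals, with a median of 0.47 (-0.02 at equal totals). *Mmp13*, a collagenase, had the largest change, from 523 (499 to 621) to 15036 (13686 to 15693) normalized counts (4.77, adjusted p = 1.47e-19). *Mmp9*, a gelatinase also abundant in neutrophils, was at 2277 (range 884 to 3896) in nonconfined and 869.6 (443 to 1229) in LPS-treated libraries, with overlap. Its log2 fold change of -1.23 (SE 0.42, adjusted p = 0.0146) was -0.20 in libraries labelled cPLA_2_ WT alone and -1.19 without the 3 LPS libraries against their label, and was not called in either. Among 25 integrins and adhesion genes, 11 rose and 6 fell (44% and 24%), or 8 and 7 at equal totals, with a median of 0.32 (-0.17 at equal totals). *Itgb8*, whose product activates TGF-beta, was nearly absent before LPS, with 4 and 2151 reads in the groups. It went from 0 (0 to 1.57) to 353 (280.3 to 404) normalized counts, a log2 fold change of 8.01 (adjusted p = 2.37e-13) that was 6.02 with a pseudocount of 5. *Icam1*, the ligand of LFA-1, named after its values were seen, rose from 6092 (5881 to 6379) to 41157 (39142 to 46315) normalized counts (2.78, adjusted p = 1.56e-18). *Cdh1*, which encodes the epithelial adhesion molecule E-cadherin, was at 11437 (range 10659.9 to 12619) in nonconfined and 2000.5 (1826 to 2076) in LPS-treated libraries. It fell without overlap, with a log2 fold change of -2.53 (SE 0.04, adjusted p = 1.41e-17).

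Of 30 genes of survival and death, 15 rose and 2 fell (50% and 6.67%), or 12 and 4 at equal totals, with a median of 0.96 (0.47 at equal totals). *Cflar*, which blocks caspase-8, had the largest increase, from 436 (338 to 496) to 5385 (4894 to 5884) normalized counts (3.63, SE 0.08, adjusted p = 2.98e-16). *Bcl2* was present at 2856 (range 2603 to 3077) in nonconfined and 414 (399 to 451) in LPS-treated libraries, far lower in every LPS-treated library (-2.74, SE 0.05, adjusted p = 6.64e-17), whereas its relatives *Bcl2l1* and the *Bcl2a1* genes, which also protect mitochondria, rose. *Pycard*, the adaptor of inflammasomes, fell from 8281 (7599.8 to 8418) to 2684 (2326 to 3140.5) normalized counts (-1.60, adjusted p = 2.43e-12) and was named after its values were seen. Of 27 genes of the unfolded protein and stress responses, 12 rose and *Sdf2l1* fell, or 11 and 2 at equal totals, with a median of 0.82 (0.33 at equal totals). *Mt2*, which binds zinc and copper, was at 1021 (range 962 to 1343) in nonconfined and 23201 (19478 to 26273) in LPS-treated libraries, an increase of 4.43 (adjusted p = 3.13e-17) without overlap. *Sdf2l1*, a cochaperone, went from 8359.9 (8051 to 9655) to 3522 (3029.8 to 3854) normalized counts (-1.32, adjusted p = 1.04e-11).

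Of 39 transcription factor genes of the DC and monocyte lineages, 15 rose and 5 fell (38.5% and 12.8%), or 13 and 8 at equal totals, with a median of 0.57 (0.07 at equal totals). *Klf4* (-1.67), *Cebpa* (-1.51), *Spib* (-1.48) and *Runx1* (-1.09), factors of blood cell lineages named after their values were seen, were among those that fell. *Irf8*, which directs the type 1 conventional DC and plasmacytoid DC fates and also responds to interferon, was at 2602 (range 2332 to 2642) in nonconfined and 11251 (11160.4 to 11933) in LPS-treated libraries and rose by 2.16 (SE 0.04, adjusted p = 1.33e-17). *Irf4*, which directs the type 2 conventional DC fate, was at 3416 (range 2603 to 3754) in nonconfined and 4548 (4015 to 5259) in LPS-treated libraries. It did not overlap and was not called, with a log2 fold change of 0.49 that was -0.01 at equal totals, and *Batf3* likewise moved from 0.47 to -0.02. *Fosl1*, a subunit of AP-1, had the largest increase, from 34.9 (18.8 to 43.9) to 781 (719 to 902) normalized counts (4.58, adjusted p = 1.54e-13).

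**Figure D3:**
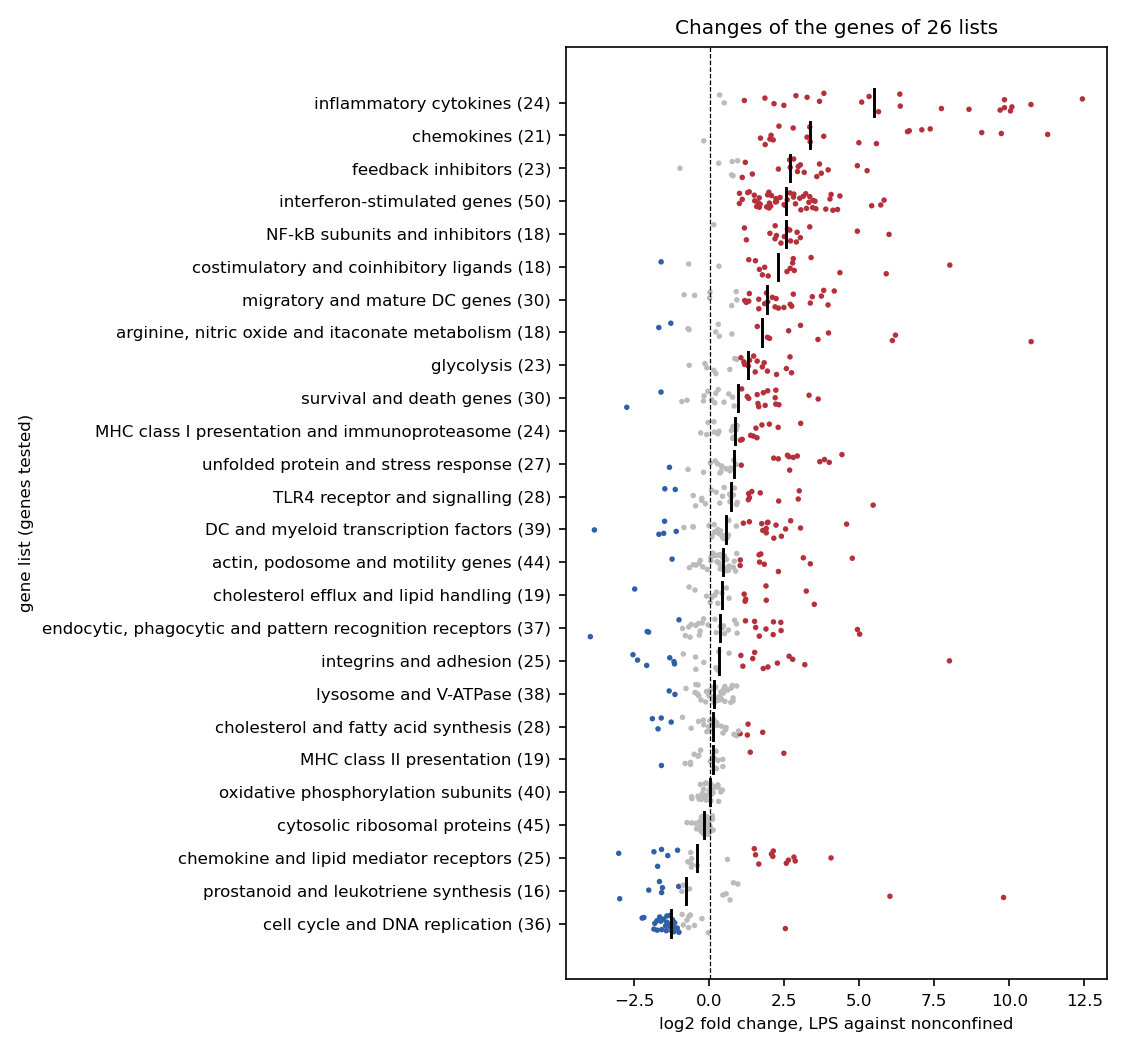
Log2 fold change of LPS-treated against nonconfined libraries (x axis) for each tested gene of 26 lists, ordered by the median (y axis, with the number of genes tested). Red points rose, blue points fell, gray points were not called, black bars are medians of a list and the dashed line is the median of 0.03 over all genes tested.

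The largest decreases, chosen by the same rule as the increases, included those of *Ppfia4*, *Nxpe5*, *Cand2*, *Septin3*, *Thbd*, *Aqp3*, *Cep131*, *Lpar5* and *Scel*. *Ppfia4* (GSMG0002403, chromosome 1 from 134224521 to 134272454), a liprin of synaptic scaffolds, was present at 462 (range 404 to 567) in nonconfined and 16.4 (5.30 to 32.6) in LPS-treated libraries. All LPS-treated libraries were lower (-4.90, SE 0.29, adjusted p = 1.75e-10). *Thbd*, which encodes thrombomodulin, an anticoagulant receptor on endothelium and some DCs, was at 339 (range 204 to 515) in nonconfined and 17.2 (14.5 to 22.9) in LPS-treated libraries, a log2 fold change of -4.09 (SE 0.24, adjusted p = 1.13e-10). *Aqp3*, a channel for water and glycerol, went from 459 (396 to 519) to 24.5 (21.2 to 41.2) normalized counts (-4.02, adjusted p = 2.37e-13), and *Lpar5*, a receptor for lysophosphatidic acid, from 834 (768 to 1066) to 55.7 (37.1 to 67.7) normalized counts (-3.96, adjusted p = 5.17e-14). Others had log2 fold changes of -4.12 for the cytoskeletal GTPase gene *Septin3*, -3.98 for the centrosome gene *Cep131*, -4.47 for *Nxpe5*, -4.21 for *Cand2*, which regulates cullin ubiquitin ligases, and -3.92 for *Scel*, known from the envelope of keratinocytes. Across the 26 lists, 723 genes were tested, of which 292 rose and 70 fell.

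Genes of cell types other than DCs were among those called and were named after their values were seen. *Lcn2*, an iron-binding protein of neutrophils that NF-kB also induces in other cells, rose from 21082 (16748 to 28803) to 86378 (72659.9 to 95657) normalized counts (1.99, adjusted p = 7.40e-10), and *Hdc*, histidine decarboxylase, from 862 (730.0 to 1071) to 10652 (9249.7 to 12836) normalized counts (3.63, adjusted p = 3.79e-14). *Cd3g* fell from 2507 (2274 to 2982) to 413 (355 to 439) normalized counts (-2.66, adjusted p = 1.26e-14). Of the monocyte markers, *Vcan*, a matrix proteoglycan, rose from 176 (82.3 to 203) to 1029.8 (772 to 1139) normalized counts (2.68, adjusted p = 3.08e-09) and *Fn1*, fibronectin, from 465 (270.3 to 611) to 1218 (749 to 1928) normalized counts (1.49, adjusted p = 3.30e-05). *Ly6c2* rose by 1.17 and *Plac8* by 1.09. The calls of *Ly6c2* (0.67), *Plac8* (0.60) and *Fn1* (1.00) were lost at equal totals. *Retnlg* (-1.55) was not called in libraries labelled cPLA_2_ WT alone (-0.79). *Col1a1* fell from 137 (96.3 to 176) to 64.7 (43.9 to 85.6) normalized counts (-1.05) and was not called without the library labelled LPS cPLA_2_ KO 1 (-1.0), LPS cPLA_2_ WT 2 (-0.94), nonconfined cPLA_2_ KO 1 (-0.97) or nonconfined cPLA_2_ KO 2 (-1.0), nor in libraries labelled cPLA_2_ WT alone (-0.71).

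cPLA_2_ releases arachidonic acid from membrane phospholipids, which cyclooxygenases and lipoxygenases turn toward prostanoids and leukotrienes. It is activated by calcium and by phosphorylation, so that its activity need not follow its mRNA. Whether the response to LPS differed between the genotype labels was tested as an interaction, which was called for 19 genes (0.112%), 2 with a higher and 17 with a lower change under the cPLA_2_ KO label, of which 9 had also been called in the pooled comparison. By edgeR it was called for 24 genes, by DESeq2 for 58. Between LPS-treated libraries labelled cPLA_2_ KO and cPLA_2_ WT, 0 genes (0%) were called by limma, 0 by edgeR and 0 by DESeq2, and 766 had an unadjusted p under 0.05. LPS-treated libraries that resembled each other stood under opposite labels, so that no conclusion on genotype is drawn from these counts. Between nonconfined libraries the labels differed in 159 genes (0.939%). Summed Y-linked genes (at most 4.6 under the cPLA_2_ WT and at least 1717.8 under the cPLA_2_ KO label) differed between the same libraries. So did eosinophil marker sums (at most 34906.5 and at least 79907.4). Genotype, sex and cell content therefore cannot be told apart here, nor in the interaction that draws on these libraries. *Marco* was at 144, 153 and 170 normalized counts in nonconfined libraries labelled cPLA_2_ WT and at 705, 686 and 776 in those labelled cPLA_2_ KO. In LPS-treated libraries it was at 11519, 10081 and 10245 under the cPLA_2_ WT and at 9157, 11110 and 10031 under the cPLA_2_ KO label. The labels were apart before LPS and overlapped after it, and the interaction was -2.28 (SE 0.12, adjusted p = 1.16e-07). The eosinophil granule gene *Epx*, also with a lower change under the cPLA_2_ KO label (-1.35, adjusted p = 0.0469), was at 7310, 6821 and 6885 in nonconfined libraries labelled cPLA_2_ WT and 17776, 17644 and 17517 in those labelled cPLA_2_ KO. In the LPS-treated libraries it was at 10640, 5535 and 8046 under the cPLA_2_ WT and 5455, 10123 and 8367 under the cPLA_2_ KO label, lowest in the libraries labelled cPLA_2_ WT 2 and cPLA_2_ KO 1. *Prg2*, *Ear1* and *Mmp9* were lowest in the same pair of LPS-treated libraries. The genes with a higher change were *Scd1*, a desaturase of fatty acids (1.78, adjusted p = 0.00823), and an entry without a symbol (GSMG0038100). *Epx*, *Prg2*, *Ear1*, *Scd1* and *Marco* were named after their values were seen.

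These counts between labels depended on single libraries. The interaction was called for 81 genes without the library labelled LPS cPLA_2_ WT 2 and for 53 without LPS cPLA_2_ KO 2. It was called for 12 without LPS cPLA_2_ KO 3, 11 without nonconfined cPLA_2_ KO 1 or cPLA_2_ WT 1, 10 without LPS cPLA_2_ WT 1, 9 without LPS cPLA_2_ WT 3 or nonconfined cPLA_2_ WT 3, 8 without nonconfined cPLA_2_ KO 3 and 7 without nonconfined cPLA_2_ WT 2. In the comparison of nonconfined labels, 70 genes were called without cPLA_2_ KO 1, 85 without cPLA_2_ KO 3, 83 without cPLA_2_ WT 2, 91 without cPLA_2_ WT 1 and 98 without cPLA_2_ WT 3. Without LPS cPLA_2_ KO 2, 1 gene was called between the LPS labels, and 77 were called without the 3 libraries against their label, a setting that leaves 1 LPS library labelled cPLA_2_ WT, whose spread was taken from the other groups.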

How the data were processed

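RNA of 18 DC samples was sequenced, and the 12 libraries from nonconfined and LPS-treated DCs were compared here. The signal values are the normalized counts the authors deposited, which are gene read counts divided by a size factor per library. According to the submitters' processing notes, reads were mapped to mm39 (GRCm39) with STAR 2.7.5a, counted per gene with featureCounts 1.5.0 on the Mouse FAST DB annotation and normalized with DESeq2 in R 3.5.3. Of 62197 genes in the table, 37020 have no symbol, and 328 entries count more than 1 gene together. The Methods name 2 stranded library kits, TruSeq Stranded mRNA and Illumina Stranded mRNA Prep Ligation, and do not state which served which sample. The protocol text names LPS for all samples, and groups were taken from sample titles and the treatment field.

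Genes with 10 normalized counts in 3 libraries were kept, log2(normalized count + 1) was fitted with limma 3.58.1 (trended variance prior) in R 4.3.3 with 1 mean per group, and p-values were adjusted by Benjamini-Hochberg. Calls follow the thresholds given in the report, 0.05 for the adjusted p and 1 for the size of the log2 fold change. The comparisons of genotype labels used 4 groups. Whole reads were recovered from the steps between values, with 100% of values whole (largest deviation 7e-10), for edgeR 4.0.16 (2548 genes higher, 2491 lower) and DESeq2 1.42.0 (2625 and 2413). The median SD between the 6 libraries was 0.109 (nonconfined) and 0.100 (LPS) on the log2 scale, differences between labels included. Figures were drawn with matplotlib 3.10.9. The pooled comparison with limma, edgeR and DESeq2 was tested on simulated counts with known changes. The other steps were not tested in this way.

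The genes named in the report are the 10 largest increases and decreases among called genes with a symbol, a mean of at least 100 and no overlap, genes chosen by role, the highest and lowest member of each list with that mean, and the 10 genes that gained and 5 that lost most counts. Others are said to have been named after their values were seen. The results of some genes are not reported here. The comparison, the rule and the lists were fixed before the data were examined, but with earlier results of these data known. Of 833 symbols in the 26 gene lists and 10 marker lists, 818 were matched by symbol, 10 in merged entries and 2 by another symbol, and *Cd58*, *Ighm* and *Trbc2* were not matched. In all, 801 were tested.

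Alternatives changed the pseudocount, filter, scaling, test, thresholds (including a 1.5-fold change with an unadjusted p under 0.05, as in the Methods), pairing and libraries. Confined libraries entered only the alternatives with 18 libraries. The authors' filter on intergenic signal needs mapped reads and was left out. Promoter sequences are those of RefSeq on GRCm38.p6, matched by symbol.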

Additional observations from a re-analysis of the deposited data

Results flagged for a closer look

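In each group of 6 libraries, the highest and lowest value of each named gene were compared with the others. A library lay far from the other 5 in 9 of 378 groups looked at, and chance gives about 1 in 20 groups (5%). The library labelled nonconfined cPLA_2_ KO 1 was the highest of its group in *Il15* (355.721 normalized counts), *Ccr7* (17366.1) and *Mt2* (1342.97). The library labelled nonconfined cPLA_2_ KO 2 was highest in *Lpar5* (1065.87) and *Flt3* (165.698) and lowest in *Pycard* (7599.77) and *Oasl1* (298.815). LPS cPLA_2_ KO 3 was highest in *U90926* (2658.76) and LPS cPLA_2_ KO 2 in *Ltc4s* (750.595).

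In 6 named genes the difference of the response to LPS between the genotype labels was itself tested and called in limma (adjusted p under 0.05 and an absolute difference above 1). On the log2 scale, the change under the cPLA_2_ KO label minus that under the cPLA_2_ WT label was -2.2836 in *Marco* (adjusted p = 1.16e-07), -2.0562 in *Mmp9* (adjusted p = 0.0389), -1.5460 in *Ear1* (adjusted p = 0.0297), -1.3454 in *Epx* (adjusted p = 0.0469), -1.2055 in *Prg2* (adjusted p = 0.0289) and 1.7757 in *Scd1* (adjusted p = 0.00823). All but *Scd1*, which was lower, were higher in the nonconfined libraries labelled cPLA_2_ KO than in those labelled cPLA_2_ WT, and the LPS-treated libraries of the labels overlapped.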

How the results depend on the processing

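The counts of genes that rose or fell stayed within 1.5 times 2694 and 2316 under the other pseudocounts, tests and sets of libraries, with 2674 to 2739 higher and 2255 to 2331 lower when 1 library was left out. No gene was called in the opposite direction in any setting, and 129 of the 144 named genes that were called were called in each setting that tested them (the filter of 100 normalized counts tested 182 of 189 named genes). The cause of the changes below was not tested.

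With each library brought to the same total, 1753 genes were higher and 4447 lower, and the median over all genes was -0.46. Log2 fold changes then reversed in *H2-Ab1* (-0.34), *Cd74* (-0.20), *Ciita* (-0.04), *Apoe* (-0.46), *Irf4* (-0.01), *Batf3* (-0.02), *Itgax* (-0.21), *Xist* (-0.30), *Cyld* (-0.34), *Tgfb1* (-0.14), *Cycs* (-0.05) and *Rps13* (-0.36). List medians reversed for MHC class II (-0.38), uptake and pattern receptors (-0.12), oxidative phosphorylation (-0.46), cholesterol and fatty acid synthesis (-0.36), efflux (-0.06), lysosome (-0.32), actin (-0.02) and integrins (-0.17). With TMM scaling and in edgeR, the median over all genes was -0.04 and that of oxidative phosphorylation -0.03, with *Apoe* at -0.03 (TMM) and -0.04 (edgeR). In DESeq2 the median over all genes and *Apoe* were both at -0.01, and the interaction was called for 58 genes.

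A filter of 100 normalized counts left fewer genes to test, of which 1735 were higher and 1348 lower, with a median of 0.04 and 88 genes called between nonconfined labels. Without a filter the median was -0.03. With the thresholds of the Methods 4170 genes were higher and 3868 lower, 680 were called in the interaction, 274 between LPS labels and 957 between nonconfined labels. By adjusted p alone these were 6437, 5917, 107 for the interaction and 1063 between nonconfined labels.

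In cPLA_2_ WT-labelled libraries alone, the median over all genes was 0.04, chemokine and lipid receptors had a median of 0.35 and cholesterol and fatty acid synthesis of -0.01, and *Flt3* (0.22), *Xist* (-0.18), *Ccl6* (0.00), *Epx* (0.15), *Prg2* (0.16) and *Ear1* (0.22) reversed. In cPLA_2_ KO-labelled libraries alone, *H2-Ab1* and the MHC class II median (-0.05 each), *Apoe* (-0.13), *Mki67* (0.16), *Scd1* (0.70), *Ddx3y* (-2.61) and *Eif2s3y* (-2.45) did. Leaving out the 3 LPS libraries against their label, an alternative chosen after seeing the data, moved *Flt3* to 0.09 and the genes called between LPS labels from 0 to 77. The fit of all 18 libraries called 49 genes in the interaction.

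Leaving out 1 library moved the interaction between 7 and 81 genes, the LPS labels between 0 and 1, the nonconfined labels between 70 and 198 and the median over all genes between 0.02 and 0.03. *Apoe* was at -0.01 without LPS cPLA_2_ WT 1 or nonconfined cPLA_2_ WT 3 and at most 0.12, without nonconfined cPLA_2_ KO 1. *Mki67* was at 0.03 without LPS cPLA_2_ KO 2, 0.01 without LPS cPLA_2_ KO 3, and 0.03, 0.06 and 0.04 without nonconfined cPLA_2_ WT 1, 2 and 3. *Scd1* was between -0.39 without nonconfined cPLA_2_ KO 3 and 0.00 without nonconfined cPLA_2_ WT 1. *Flt3* was at 0.09 without LPS cPLA_2_ KO 1, 0.00 without LPS cPLA_2_ WT 3 and 0.06 without nonconfined cPLA_2_ KO 2.

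The replicate number was also used as a replicate block, which left 8 genes in the interaction and 104 between nonconfined labels. In the pooled comparison this replicate block gave 2690 genes higher and 2308 lower. Numbers did not pair the groups, as only 3 of 6 LPS-treated libraries were nearest to the nonconfined library of their own number.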
